A study of Mus musculus with 4 samples.

Results

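Genes that mark alternative activation of macrophages were examined in the bone marrow-derived macrophages (BMDMs) of 2 genotypes. The genes were taken by name from the deposited table of 34745 genes: Retnla, Chil3, Mrc1, Cd163, Mgl2, Clec10a, Il4ra, Il10ra and Pdcd1lg2, 9 genes, all of which were found. RNA sequencing was performed on 4 libraries of total RNA, 2 per genotype, labelled WT replicates 1 and 2 and KO replicates 1 and 2. Per the labels the KO carried the genotype G3bp1mac-/- and the controls were WT. The series' design text gives the controls as G3bp1f/f, mice with a floxed G3bp1 gene, and per the study's methods the KO were such mice crossed to Lyz2-Cre, which also acts in monocytes and granulocytes. The cells were cultured in DMEM with serum, and no treatment was given in the labels. Whether the controls carried Cre, whether mice were pooled, and the age and sex of the animals behind these libraries are not given in the sources used here. With no statement that the libraries came from separate cultures or animals, p-values measure only the spread between these libraries.

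Alternative activation is the state that macrophages take on when interleukin (IL)-4 or IL-13 binds receptors that contain the IL-4 receptor alpha chain. Kinases bound to these receptors, such as Jak1, phosphorylate the transcription factor STAT6. STAT6 then turns on a set of genes for secreted lectin-like proteins and endocytic lectin receptors, and IL-10 acts beside it through STAT3. The state is known from parasite infection, tissue repair and allergic inflammation, and its genes are used as readouts in allergic airway disease.

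The libraries held between 16724241 and 19747909 gene counts. Levels are given as CPM, the count of a gene relative to its library total after TMM (trimmed mean of M values) scaling. After low genes were filtered out, 12418 genes were tested. The targeted gene G3bp1 had 1691 and 2875 counts in the WT libraries against 1307 and 2296 in the KO libraries, or 104 and 180 CPM against 70.1 and 117 CPM, so the genotypes overlapped across the replicate numbers. Within each replicate number it was lower in KO, with log2 ratios of -0.57 for number 1 and -0.63 for number 2, and the fitted value was -0.61 (SE 0.40, edgeR quasi-likelihood adjusted p 0.904). The libraries numbered 2 stood apart from those numbered 1 in both genotypes: Tnf, an inflammatory cytokine gene, had 122 and 21261 counts in WT replicates 1 and 2 and 98 and 14019 in KO. The log2 ratio of KO to WT within each number is therefore given beside the values fitted over all 4 libraries, although a number holds only 1 library per genotype and so carries no replicate error. The macrophage marker genes Adgre1, Csf1r, Cd68, Cd14, Fcgr1, Itgam, Lyz2, Mertk and Cd84 had counts in every library and summed to 25196 to 27560 CPM in WT and 22156 to 25325 CPM in KO. Most of this sum was Lyz2. Without Lyz2 they summed to 5690 and 6519 CPM in WT and 5287 and 5828 CPM in KO, where the genotypes overlapped.

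The first question was whether the alternative activation genes differed between the genotypes. Transcripts of the secreted proteins RELMalpha and Ym1 (Retnla and Chil3) were 5.30-fold and 2.41-fold lower in KO by mean CPM, with both KO libraries below both WT libraries. The C-type lectin genes Mgl2 and Clec10a and the PD-1 ligand gene Pdcd1lg2 were also lower in both KO libraries, at lower counts. The mannose receptor gene Mrc1 and the cytokine receptor genes Il4ra and Il10ra overlapped between the genotypes, and the scavenger receptor gene Cd163 was barely detected. Of the 9 genes, 8 passed the filter. A call needed an adjusted p below 0.05 and a log2 fold change beyond 1 in either direction, and 0 of these 8 reached it in edgeR's quasi-likelihood test, as did 0% of all 12418 genes. At an unadjusted p under 0.05 it found 2 of the 8, both lower in KO, beside 1.99% of all genes lower and 4.64% higher. Other tools gave other counts of calls: the DESeq2 Wald test called 2 of the genes, both lower in KO, beside 0.362% of all genes called lower, edgeR's exact test called 1, beside 0.242%, and the exact test with another estimate of dispersion, run after the data had been seen, also called 1, beside 0.290%. Both KO libraries lay below both WT libraries for 5 of the 8 genes, beside 16.9% of all genes tested, and above them for 0, beside 20.0%. Without WT replicate 1 the first count was 8. Leaving out a library can only keep or raise this count, and the 16.9% holds for all libraries together. The median log2 fold change of the 8 genes was -0.61, where that of all genes tested was 0.04, and the 8 values ran from -2.40 to 0.23. Within number 1 the ratio was below 0 for 5 of the 8 genes, beside 42.8% of all genes tested, and within number 2 for all 8, beside 50.2%, where Il4ra (-0.02) and Mrc1 (-0.10) were close to 0. Of the 8 genes 5 (62.5%) were below 0 in both, beside 29.0% of all genes tested. These shares are descriptions, since the genes were chosen with earlier results of these data known. Markers of mast cells and basophils were lower in both KO libraries too, with a sum of 81.5 to 83.2 CPM in WT and 37.0 to 44.6 CPM in KO, as were those of neutrophils, while stromal markers were higher. Their part in the levels of the alternative activation genes was not tested, and in bulk libraries fewer cells of a type and less RNA per cell cannot be told apart.

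**Figure D1:**
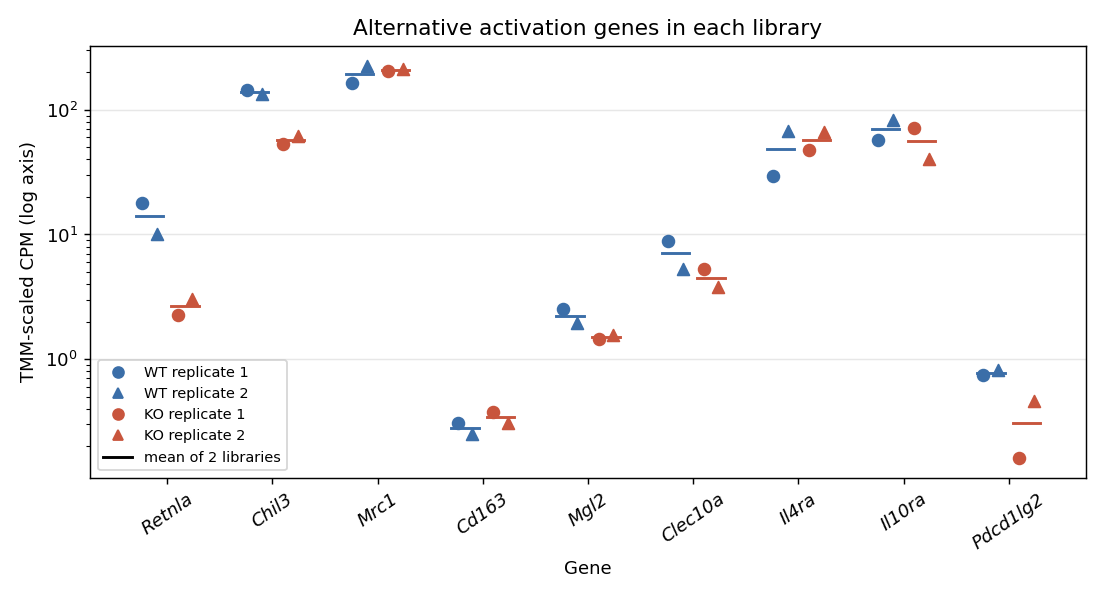
TMM-scaled CPM (log axis) of the 9 genes in each of the 4 libraries, with circles for replicate 1, triangles for replicate 2, blue for WT, red for KO and a bar at the mean of 2 libraries. The KO libraries lay below both WT libraries for Retnla, Chil3, Mgl2, Clec10a and Pdcd1lg2, with Clec10a separated by 5.27 against 5.26 CPM.

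Retnla encodes RELMalpha, also called FIZZ1, a small secreted protein of the resistin-like family. The gene lies at chr16:48842552-48844461 on the plus strand of GRCm38 (ENSMUSG00000061100). Its level was 18.0 and 10.1 CPM in the WT libraries against 2.25 and 3.05 CPM in the KO libraries, from 292, 161, 42 and 60 counts. The lower of the WT libraries was still above the higher of the KO libraries, and the WT libraries differed from each other more than the KO libraries did. KO kept 18.9% of the WT mean of 14.1 ± 5.58 CPM, at 2.65 ± 0.56 CPM (SD, n = 2 each). The log2 fold change of -2.40 (SE 0.41, 95% confidence interval -3.44 to -1.36) was the 23rd lowest of the 12418 genes tested. edgeR's quasi-likelihood p was 0.00177, or 0.250 once adjusted, and the log2 ratios were -2.98 within number 1 and -1.72 within number 2. Retnla was the only one of the 9 genes that edgeR's exact test called, at an adjusted p of 0.00318, where its adjusted p over all alternatives ran from 2.04e-13 to 1.000.

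Chil3 encodes Ym1, a secreted chitinase-like lectin that forms crystals in allergic mouse airways. It lies at chr3:106147554-106167564 on the minus strand of GRCm38 (ENSMUSG00000040809). Chil3 had 144 and 134 CPM in the WT libraries against 53.3 and 62.1 CPM in the KO libraries, from 2331, 2137, 994 and 1223 counts. The replicates of each genotype were close together and the genotypes were well apart. The mean was 139 ± 6.78 CPM for WT against 57.7 ± 6.22 CPM for KO (SD, n = 2 each), so that KO kept 41.6%. On the log2 scale the fitted change was -1.27 (SE 0.23, 95% confidence interval -1.85 to -0.68), where the edgeR quasi-likelihood p was 0.00235 unadjusted and 0.263 adjusted. By number, the log2 ratios were -1.43 for number 1 and -1.11 for number 2. Its adjusted p was 0.000742 in the DESeq2 Wald test and 0.245 in edgeR's exact test, and ran from 2.55e-06 to 1.000 over all alternatives. Of the 50-base words in the annotated transcripts of Chil3, 26.9% also lie in transcripts of Chil4 or Gm6522, so reads could be split between them, and Chil4 itself had 3 and 1 counts in the WT libraries against 0 and 2 in the KO libraries.

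Short genes as a group were lower in KO replicate 1 than in WT replicate 1, and both transcripts are short. Dividing count by FPKM gave an implied length of 598 bases for Retnla and 2074 for Chil3. The 500 tested genes nearest in length to Retnla had a median log2 ratio of -0.80 within number 1 and -0.11 within number 2, and those nearest to Chil3 had -0.23 and -0.04. With the trend of each library with gene length removed, the log2 fold changes were -1.88 for Retnla and -1.16 for Chil3. Each was closer to 0 than without the correction and remained below -1. Pdcd1lg2, with an implied length of 1645 bases, is short too. Its 500 nearest genes had medians of -0.32 within number 1 and -0.05 within number 2. The correction moved Pdcd1lg2 from -1.30 to -1.15, but Clec10a and Mgl2 moved away from 0, to -0.78 and -0.63. The median of all the tested alternative activation genes went from -0.61 to -0.71.

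STAT6 acts by binding DNA near its targets, so the promoters of the genes with both KO libraries below both WT libraries are shown, where a sequence was matched, beside that of Mrc1, whose genotypes overlapped. RefSeq promoter sequences of GRCm38.p6 were matched by symbol for 7 of the 9 genes, and not for Clec10a or Il10ra. The windows searched were the 250 bases before RefSeq's start of each gene. For Retnla, Mgl2 and Mrc1 that start lies 57, 28 and 22 bases inside the gene as the deposited table places it, and these bases are left out of the sequences shown. Given 5′ to 3′ on the strand of the gene are Retnla (chr16:48842359-48842551, plus strand), Chil3 (chr3:106167565-106167814, minus strand), Mgl2 (chr11:70130107-70130328, plus strand), Pdcd1lg2 (chr19:29410669-29410918, plus strand) and Mrc1 (chr2:14229164-14229391, plus strand). Capitals mark matches to TTC and GAA with 4 bases between them, the spacing that STAT6 prefers, and to TTC and GAA with 3 bases between them, the spacing of other STAT proteins. The third motif searched was TATAAA, the TATA box.
Retnla: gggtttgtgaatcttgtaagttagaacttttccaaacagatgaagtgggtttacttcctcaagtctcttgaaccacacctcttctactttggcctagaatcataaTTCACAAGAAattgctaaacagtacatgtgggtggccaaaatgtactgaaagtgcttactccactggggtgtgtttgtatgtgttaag
Chil3: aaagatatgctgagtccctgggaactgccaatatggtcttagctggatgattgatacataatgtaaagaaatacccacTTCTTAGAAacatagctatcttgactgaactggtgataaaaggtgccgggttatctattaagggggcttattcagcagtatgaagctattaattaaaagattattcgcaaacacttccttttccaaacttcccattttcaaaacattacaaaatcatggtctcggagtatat
Mgl2: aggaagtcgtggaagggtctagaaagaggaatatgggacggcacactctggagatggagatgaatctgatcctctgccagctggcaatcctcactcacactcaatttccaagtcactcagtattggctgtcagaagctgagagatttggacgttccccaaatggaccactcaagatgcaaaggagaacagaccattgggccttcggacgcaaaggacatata
Pdcd1lg2: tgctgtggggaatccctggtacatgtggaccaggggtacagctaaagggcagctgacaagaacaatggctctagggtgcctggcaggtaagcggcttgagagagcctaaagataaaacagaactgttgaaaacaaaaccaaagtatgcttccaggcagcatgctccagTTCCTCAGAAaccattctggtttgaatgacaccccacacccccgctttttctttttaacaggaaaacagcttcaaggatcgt
Mrc1: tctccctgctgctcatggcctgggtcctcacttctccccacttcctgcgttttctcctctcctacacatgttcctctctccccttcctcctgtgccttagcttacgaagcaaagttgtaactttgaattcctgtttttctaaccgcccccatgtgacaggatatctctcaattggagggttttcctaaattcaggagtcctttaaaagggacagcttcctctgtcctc
Counted from RefSeq's start, the Retnla promoter held TTCACAAGAA from base -145 to -136, and that of Pdcd1lg2 held TTCCTCAGAA from -82 to -73. Chil3 had TTCTTAGAA from -172 to -164. Mgl2, also lower in both KO libraries, had none of these 3 motifs, and neither had Mrc1. The only TATAAA lay from -30 to -25 of Retnla, which is inside the gene by the deposited table. The 4-base spacing was found in 2 of the 7 promoters, beside 5.85% of 32851 promoters of the same length. The 3-base spacing was found in 1, beside 7.02%, and TATAAA on the strand of the gene in 1, beside 7.59%. GAGGAAG, a core of PU.1 binding sites that is not capitalised here, was found on either strand in 2 (Retnla and Mrc1), beside 10.6%. Both spacings read the same on both strands and do not overlap in these windows. A match in these letters is a description of the window, not evidence of binding.

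**Figure D2:**
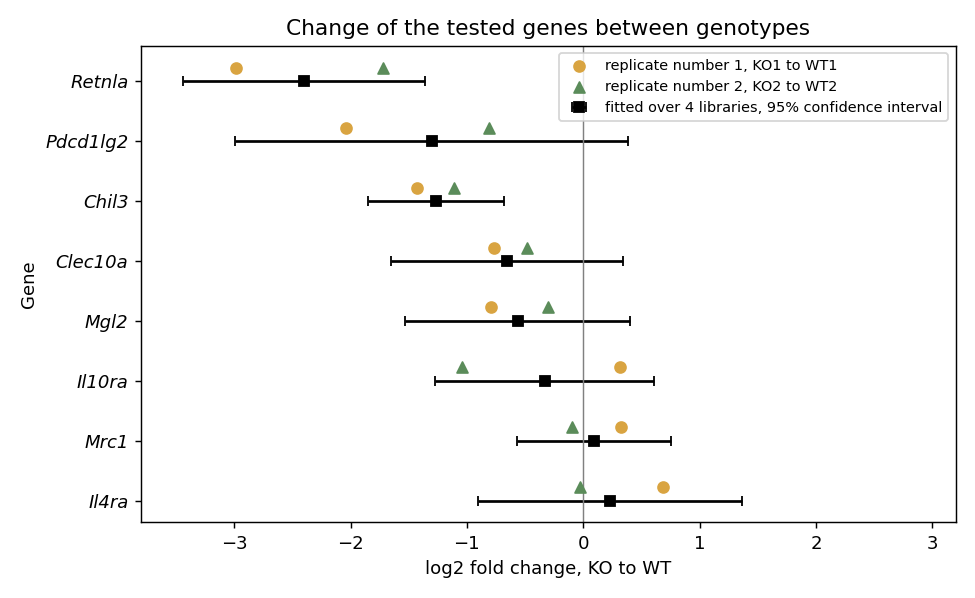
Log2 fold change of KO to WT for the 8 genes tested, with squares for the value fitted over 4 libraries and bars for its 95% confidence interval, circles for the ratio within replicate number 1 and triangles for that within number 2. The intervals of Retnla and Chil3 lie wholly below 0, and the ratios of Il10ra, Mrc1 and Il4ra lie on opposite sides of 0 in the 2 numbers.

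The lectin and scavenger receptors take up glycosylated ligands and mark tissue-resident and alternatively activated macrophages. Mrc1 (ENSMUSG00000026712, chr2:14229392-14332057), the mannose receptor CD206, had 165 and 226 CPM in the WT libraries against 206 and 212 CPM in the KO libraries. Both KO libraries lay between the WT libraries. The mean was 196 ± 43.8 CPM for WT against 209 ± 4.29 CPM for KO (SD, n = 2 each). This was a log2 fold change of 0.09 (SE 0.26, 95% confidence interval -0.57 to 0.76), whose edgeR quasi-likelihood adjusted p was 0.982. By number the ratios were 0.32 and -0.10, and the sign of the fitted value turned to -0.05 with the length correction and to -0.12 without WT replicate 1. Leaving out WT replicate 2 gave 0.31.

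Clec10a and Mgl2 are neighbouring paralogues on chromosome 11 that encode macrophage galactose-type lectins, CD301a and CD301b. Clec10a (ENSMUSG00000000318, chr11:70156197-70170834) had 8.94 and 5.27 CPM in the WT libraries against 5.26 and 3.76 CPM in the KO libraries, from 145, 84, 98 and 74 counts. WT replicate 2 and KO replicate 1 were almost equal. On the log2 scale the fitted change was -0.66 (SE 0.39, 95% confidence interval -1.65 to 0.34, edgeR quasi-likelihood adjusted p 0.896), while the ratios by number were -0.76 and -0.49. Leaving out WT replicate 1 gave -0.23 and leaving out WT replicate 2 gave -1.02. Per length the groups overlapped, with 0.85 FPKM in WT replicate 2 and 1.01 FPKM in KO replicate 1. Mgl2 (ENSMUSG00000040950, chr11:70130329-70137550) had 2.53 and 1.95 CPM in the WT libraries against 1.45 and 1.57 CPM in the KO libraries, from 41, 31, 27 and 31 counts. WT replicate 2 and KO replicate 2 had the same count, and the KO level was lower after scaling. Its fitted difference (log2) was -0.56 (SE 0.38, 95% confidence interval -1.53 to 0.41, edgeR quasi-likelihood adjusted p 0.912), while the ratios by number were -0.79 and -0.30. Dropping WT replicate 1 moved it to -0.36, and dropping WT replicate 2 moved it to -0.77. The 2 genes share 270 of the 50-base words of their annotated transcripts, 8.49% of those of Clec10a and 12.2% of those of Mgl2, so their counts are not fully separate.

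Cd163 (ENSMUSG00000008845, chr6:124304656-124330527), the scavenger receptor for haemoglobin bound to haptoglobin and a gene that IL-10 and glucocorticoids raise, had 5 and 4 counts in the WT libraries against 7 and 6 in the KO libraries. The exact Poisson 95% intervals of these counts ran from 1.09 at the lowest to 14.4 at the highest and overlapped throughout, covering counting error only. It did not pass the filter. The ratios by number were 0.25 and 0.23, and in the fit without a filter its log2 fold change was 0.26 (95% confidence interval -1.44 to 1.95), so a difference was not detectable at this depth.

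The cytokine receptor chains gave no shared direction across the replicate numbers. Il4ra (ENSMUSG00000030748, chr7:125552120-125579474), the chain through which IL-4 and IL-13 signal, had 29.7 and 67.5 CPM in the WT libraries against 47.6 and 66.4 CPM in the KO libraries. The KO libraries lay within the range of the WT libraries, and the libraries numbered 2 were higher in both genotypes, by 1.19 on the log2 scale in WT and 0.48 in KO. Its fitted difference (log2) was 0.23 (SE 0.45, 95% confidence interval -0.90 to 1.36, edgeR quasi-likelihood adjusted p 0.976), between ratios of 0.68 for number 1 and -0.02 for number 2. Leaving out WT replicate 1 turned it to -0.24, leaving out WT replicate 2 raised it to 0.91, and leaving out KO replicate 2 gave -0.04. Of its 50-base words, 8.44% also lie in transcripts of Gm44876.

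Il10ra (ENSMUSG00000032089, chr9:45253837-45269149), the ligand-binding chain of the IL-10 receptor, had 57.2 and 82.8 CPM in the WT libraries against 71.2 and 40.2 CPM in the KO libraries. Number 2 was higher than number 1 in WT and lower in KO. KO relative to WT (log2) was therefore 0.32 for number 1 and -1.04 for number 2, and the fitted value of -0.33 (SE 0.37, 95% confidence interval -1.27 to 0.61, edgeR quasi-likelihood adjusted p 0.962) lay between them. Leaving out KO replicate 1 gave -0.80 and leaving out KO replicate 2 gave 0.02.

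Pdcd1lg2 (ENSMUSG00000016498, chr19:29410919-29471157) encodes PD-L2, an IL-4-induced ligand of PD-1, an inhibitory receptor of T cells. There were 12 and 13 counts in WT replicates 1 and 2 against 3 and 9 in the KO replicates, or 0.74 and 0.82 CPM against 0.16 and 0.46 CPM. Both KO libraries were lower. The exact Poisson 95% intervals, 6.20 to 21.0 and 6.92 to 22.2 counts in WT and 0.62 to 8.77 and 4.12 to 17.1 counts in KO, overlapped in every pair and cover counting error only. Its fitted difference (log2) was -1.30 (SE 0.67, 95% confidence interval -2.99 to 0.39, edgeR quasi-likelihood adjusted p 0.850), and the ratios by number were -2.04 and -0.81. Leaving out KO replicate 1 gave -0.75 and leaving out KO replicate 2 gave -2.23. Its paralogue and neighbour Cd274, which encodes PD-L1, had 2089 and 7436 counts in the WT libraries against 2447 and 5735 in the KO libraries, with a log2 fold change of -0.49 (SE 0.70).

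Compared per length, as the authors' FPKM, the 9 genes differed widely in WT. Chil3 led with 66.1 and 60.9 FPKM in the WT libraries. Mrc1 with 21.1 and 28.6 FPKM and Retnla with 28.7 and 15.9 FPKM came next and overlapped. Below them were Il10ra with 6.60 and 9.43 FPKM and Il4ra with 3.09 and 6.94 FPKM, which also overlapped. Clec10a had 1.47 and 0.85 FPKM, Mgl2 0.61 and 0.46 and Pdcd1lg2 0.43 and 0.47, of which the last 2 overlapped, and Cd163 had 0.04 and 0.03 FPKM. The order in KO differed in that Chil3 at 28.7 and 29.9 FPKM was level with Mrc1 at 30.8 and 28.3 FPKM, and Retnla at 4.20 and 5.08 FPKM overlapped Il10ra, at 9.59 and 4.84 FPKM, which also overlapped Il4ra at 5.79 and 7.23 FPKM. Clec10a followed with 1.01 and 0.64 FPKM in KO, Mgl2 with 0.41 and 0.40, Pdcd1lg2 with 0.11 and 0.28 and Cd163 with 0.06 and 0.04, none of which overlapped its neighbour. Among all 34745 genes, the mean FPKM of Chil3 ranked 753 in WT and 1454 in KO, and that of Retnla 1837 and 5561.

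The ligands and signalling genes of the pathway came next. Il4 and Il13 had 0 counts in all 4 libraries, so that a level of 0.152 to 0.188 CPM, depending on the library, is the most that counting error leaves room for. Il10 had 4 and 4 counts in the WT libraries against 6 and 5 in the KO libraries and was not tested. Of the 14 genes on the list of IL-4 and IL-13 signalling, 11 were tested and 0 were called by edgeR's quasi-likelihood test, with 0 at an unadjusted p under 0.05 and a median log2 fold change of 0.09. Stat6, the transcription factor of the pathway, had 170 ± 6.02 CPM for WT against 190 ± 14.6 CPM for KO (SD, n = 2 each) and a log2 fold change of 0.16 (SE 0.23). Jak1, a kinase of the receptor, was the most abundant and had 0.18 (SE 0.30). The feedback inhibitor genes Cish and Socs1 had log2 fold changes of -2.65 (SE 1.46) and -0.97 (SE 0.79), and Cish had 3 and 81 counts in the WT libraries against 3 and 13 in the KO libraries, so that its value came from number 2.

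Of the 10 genes of IL-10 signalling, 9 were tested, 0 were called and 0 had an unadjusted p under 0.05 in edgeR's quasi-likelihood test, with a median of -0.15. Stat3, which carries the IL-10 signal, had a log2 fold change of 0.31 (SE 0.28). Il1rn, the IL-1 receptor antagonist, had -0.68 (SE 0.58), and Socs3, a STAT3 feedback gene, had -0.97 (SE 1.58). Hmox1, haem oxygenase, was the most abundant, with 0.02 (SE 0.29). All 9 genes overlapped between the genotypes, beside 63.1% of all genes tested.

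Among the transcription factors of alternative activation, 13 of 13 were tested and 0 were called by edgeR's quasi-likelihood test, with a median of -0.14. In that test 1 had an unadjusted p under 0.05, lower in KO, beside 1.99% of all genes lower and 4.64% higher. This was Irf4, an interferon regulatory factor that acts in alternative activation. Irf4 had 178 and 183 counts in the WT libraries against 80 and 54 in the KO libraries, or 11.2 ± 0.36 CPM against 3.52 ± 1.10 CPM (SD, n = 2 each). Its KO libraries were far below both WT libraries, and the ratios by number were -1.35 and -2.06. Its fitted difference (log2) was -1.67 (SE 0.34, unadjusted p 0.00382, edgeR quasi-likelihood adjusted p 0.289), and the DESeq2 Wald test and the exact test with the other estimate of dispersion called it, while edgeR's exact test did not. Batf3, a partner of Irf4 on DNA, had -0.75 (SE 0.34) with both KO libraries lower, and the most abundant factor, Cebpb, had -0.52 (SE 0.58).

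Other genes that IL-4 induces lay in both directions. Of 21 genes 18 were tested, 0 were called, and 5 had an unadjusted p under 0.05 in edgeR's quasi-likelihood test, 4 lower and 1 higher in KO, beside 1.99% and 4.64% of all genes, with a median of -0.20. Both KO libraries were below both WT libraries for 5 of the 18, beside 16.9% of all genes, and above them for 2, beside 20.0%. Clec7a, the beta-glucan receptor dectin-1, had 1183 ± 155 CPM for WT against 715 ± 100.3 CPM for KO, with a log2 fold change of -0.73 (SE 0.23) and ratios of -0.72 and -0.74 within the numbers. Mmp12, macrophage elastase and the most abundant of the list, had 6493 ± 420 CPM and 4590 ± 150.0 CPM, a log2 fold change of -0.50 (SE 0.17). Ear2, a ribonuclease of eosinophils and macrophages, had 69 and 31 counts in the WT libraries against 11 and 19 in the KO libraries (-1.98, SE 0.57). Fn1, fibronectin, was the gene in the other direction, with 89.2 ± 35.2 CPM for WT against 225 ± 1.32 CPM for KO (1.33, SE 0.34). The DESeq2 Wald test called it (adjusted p 0.0460), and stromal cells also make it.

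Genes of arginine and polyamine metabolism were centred on 0. Of 15 genes 14 were tested, 0 were called, 0 had an unadjusted p under 0.05 in edgeR's quasi-likelihood test, and the median was 0.01. Sat1, which acetylates polyamines and was the most abundant, had -0.48 (SE 0.26), Asl, argininosuccinate lyase, had -0.26 (SE 0.21), and Amd1, a decarboxylase of polyamine synthesis, had 0.27 (SE 0.21). Nos2, the inducible nitric oxide synthase, had 0 and 33 counts in the WT libraries against 0 and 15 in the KO libraries.

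Classical activation genes, read as the counterpart, had a median log2 fold change of -0.86 over the 15 of 18 that were tested, with 0 called and 0 at an unadjusted p under 0.05 in edgeR's quasi-likelihood test. Their median ratio was 0.04 within number 1 and -0.86 within number 2. Il1b had 2 and 6783 counts in the WT libraries against 3 and 1294 in the KO libraries, and its ratios by number were 0.29 and -2.69, the first from these few counts. The SE of its log2 fold change of -2.69 was 2.95, and that of Tnf, at -0.90, was 2.44. Ccr7, a chemokine receptor, was the only gene of the list with both KO libraries below both WT libraries (-0.86, SE 0.44). That was 1 of 15 genes, beside 16.9% of all genes tested. Of the 15, 14 overlapped between the genotypes, beside 63.1%, and 0 were higher throughout in KO, beside 20.0%. From number 1 to number 2, Retnla and Chil3 changed by -0.83 and -0.10 on the log2 scale in WT and by 0.43 and 0.22 in KO.

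**Figure D3:**
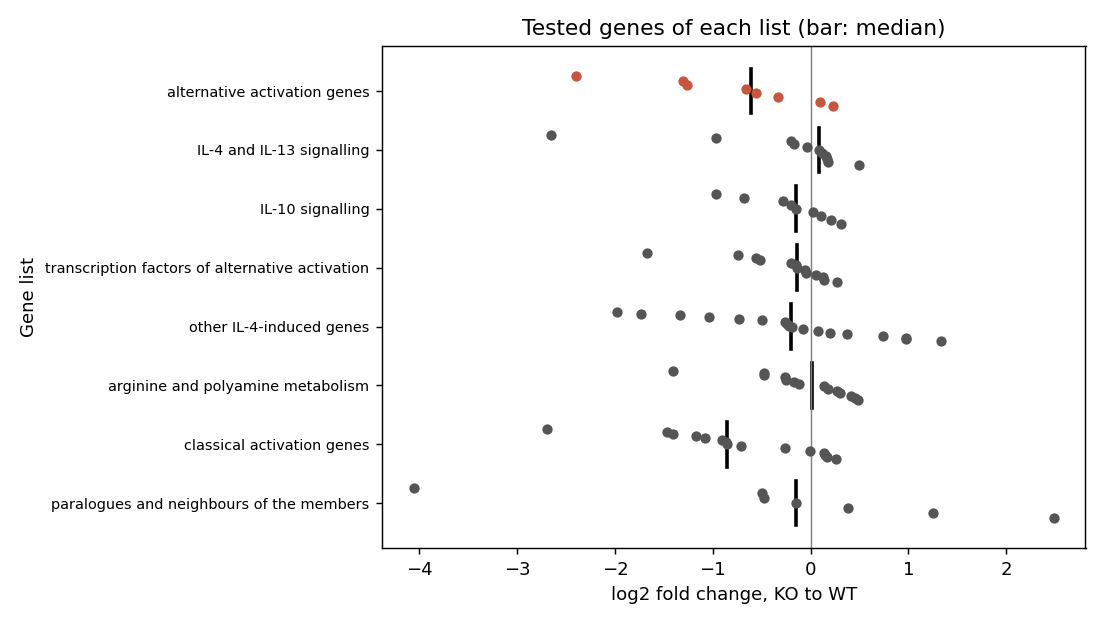
Log2 fold change of KO to WT for each tested gene of the alternative activation genes and of the 7 pathway lists, with a point per gene and a bar at the median. The median was -0.61 for the alternative activation genes and between -0.86 and 0.09 for the other lists.

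Paralogues of the genes showed where family members differed. Retnlg, the neighbour of Retnla that neutrophils express, had 99 and 71 counts in the WT libraries against 3 and 9 in the KO libraries, a log2 fold change of -4.05 (SE 0.57, edgeR quasi-likelihood adjusted p 0.216). edgeR's exact test and the DESeq2 Wald test both called it. The exact test with the other estimate of dispersion called it too, and also Mrc2. No 50-base word of the Retnla transcript lies in an annotated transcript of another gene. Chil1, the paralogue of Chil3, had 3 and 15 counts in the WT libraries against 18 and 34 in the KO libraries (1.25, SE 0.80), in the other direction. Mrc2, a collagen receptor of the family of Mrc1 that fibroblasts express, had 4 and 5 counts in the WT libraries against 34 and 27 in the KO libraries (2.48, SE 0.51). Il10rb, the shared chain of the IL-10 receptor, had -0.15 (SE 0.24). Of the 16 paralogues and neighbours 7 were tested and 0 were called by edgeR's quasi-likelihood test. At an unadjusted p under 0.05 in that test, 1 was lower and 1 higher, beside 1.99% of all genes lower and 4.64% higher.

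The lists of markers of other cell types were read in the same way. Marker levels below are sums in CPM over each list, and the counts of genes lower or higher in both KO libraries stand beside 16.9% and 20.0% of all genes tested. Mast cell and basophil markers summed to 81.5 to 83.2 in WT and 37.0 to 44.6 in KO, with 4 of 6 tested genes lower in both KO libraries and Mcpt8 at 0 in all 4. Neutrophil and granulocyte precursor markers, among them Retnlg, summed to 26.2 to 28.8 in WT and 8.10 to 12.0 in KO, with 3 of 3 tested genes lower and Mpo and Elane at 0 in all 4. Eosinophil markers summed to 14.1 to 15.2 in WT and 9.50 to 9.77 in KO, led by Siglecf, with 3 of 3 tested genes lower and Epx, Prg2, Ear1 and Ear6 at 0 in all 4. Of these 3 tested genes, Alox15 is also on the list of other IL-4-induced genes. B cell markers summed to 43.2 to 47.0 in WT and 23.4 to 27.0 in KO, with 5 of 5 tested genes lower. Monocyte markers summed to 437 and 1571 in WT and 145 and 565 in KO, most of it F10, which encodes coagulation factor X, and without F10 to 25.5 and 37.3 in WT and 19.3 and 30.5 in KO, where the genotypes also overlapped. Of the 8 monocyte genes tested, 2 were lower in both KO libraries and 1 was higher. T and NK cell markers summed to 1.69 to 2.40 in WT and 1.12 to 1.40 in KO. Dendritic cell markers, whose cells can express Mgl2, Clec10a and Pdcd1lg2, summed to 272 to 385 in WT and 394 to 426 in KO, led by Itgax, which macrophages also express. Without Itgax they summed to 6.47 and 9.54 in WT and 6.39 and 8.28 in KO, and overlapped. Of the 5 dendritic cell genes tested, 1 was lower and 1 higher in both KO libraries. Stromal cell markers were higher in both KO libraries, at 78.7 to 92.1 in WT and 323 to 345 in KO, with 7 of 8 genes higher in both KO libraries. The part of these cells in the levels of Retnla, Chil3 and Irf4 was not tested.

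**Figure D4:**
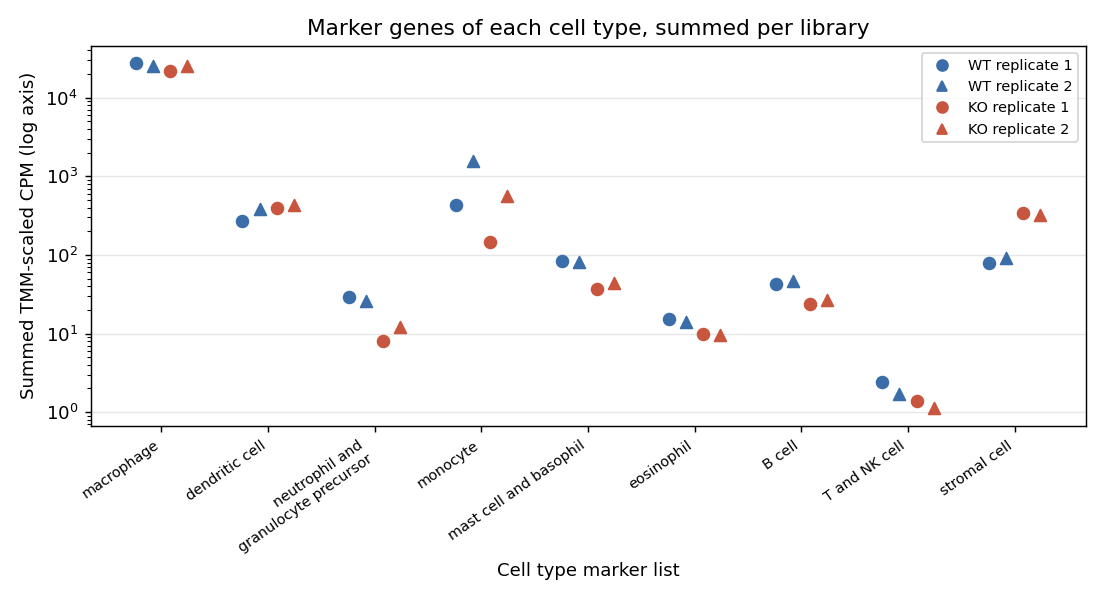
Summed TMM-scaled CPM (log axis) of the marker genes of each cell type in the 4 libraries, with circles for replicate 1, triangles for replicate 2, blue for WT and red for KO. Macrophage markers, most of it Lyz2, summed to 22156 to 27560 CPM over the 4 libraries, and mast cell and basophil markers to 81.5 to 83.2 CPM in WT and 37.0 to 44.6 CPM in KO.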

How the data were processed

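The authors filtered reads with Seqtk, mapped them with Hisat2 and had StringTie count the fragments of each gene, and deposited raw counts with FPKM beside them for each library. The submitters' processing notes name HISAT2 2.0.4, StringTie 1.3.3b and mm39, but of 34267 gene identifiers also in GENCODE release M21, 27686 matched GRCm38 at both ends, and that build is used for positions. Deposited FPKM served only for levels per length, implied lengths and 1 alternative. Whether counting used the strand is not stated.

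The count model was fitted with edgeR 4.0.16 under R 4.3.3: filterByExpr (minimum count 10, minimum total count 15), TMM factors from 0.942 to 1.12, a genotype term alone, then glmQLFit and a two-sided glmQLFTest, adjusted by Benjamini-Hochberg over 12418 genes. As in the study's methods, calls needed an adjusted p below 0.05 and a log2 fold change beyond 1 in either direction. Those methods name edgeR but not which of its tests was used. The study reported differentially expressed genes between these genotypes, where the quasi-likelihood test used here called none. For ratios by number, 0.5 was added to each count. Replicates were no copies of each other (chi-square 87.9 to 118 times its degrees of freedom), so all 4 libraries were used. Levels at 0 are limited by 3 counts, counting error only.

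Genes and lists were chosen with earlier results of these data known. A gene of the rule and 1 marker gene are not reported here and enter no count, median or sum of a list. The 9 genes were named always, with the 3 genes of smallest p and the most abundant gene of each of 7 pathway lists; Cd274, Il4, Il13, Il10 and Chil4 were added for their bearing on them. Alternatives were DESeq2 1.42.0 size factors and Wald test, library totals, a filter at mean CPM 1 or none, a replicate term, a length correction (loess, span 0.5), edgeR's exact test with tagwise dispersion, limma 3.58.1 on log2(FPKM + 1), no minimum fold change, 1 count added, and each library left out. The code was tested on simulated data.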

Additional observations from a re-analysis of the deposited data

How the results depend on the processing

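In edgeR's quasi-likelihood fit, 0 of the 8 genes were called. The DESeq2 Wald test called 2 (Retnla and Chil3) and edgeR's exact test 1 (Retnla). The exact test with dispersions from estimateDisp, chosen after seeing the data, called 1 (Retnla). DESeq2 size factors, library totals, a filter at mean CPM 1 or none, the length correction, limma on log2(FPKM + 1), no minimum fold change and each library left out gave 0. Over all genes, the DESeq2 Wald test called 181, the exact test 174 and the exact test with estimateDisp dispersions 229. The labels tie no batch to a replicate number and there are only 2 pairs, so pairing is not established. Deviations of same-numbered libraries correlated at 0.710. With the replicate block, 2 of the 8 genes were called, Retnla (-2.35) and Chil3 (-1.27), both lower in KO, beside 1.37% of all genes called lower and 664 called in all. With the replicate block and gene length correction the same 2 were called, with 368 of all genes. Of the pathway genes, the replicate block called Ccl22, Ccl24, Cish, Ear2, Il1b (-2.53, adjusted p 7.88e-12 in edgeR's quasi-likelihood test), Irf4 and Retnlg lower and Fn1 and Mrc2 higher, and beside the length correction all of these but Ccl24 and Ear2. Why the tests differ was not tested. Over the fits that left out 1 library, which assume that a lone library varies like the other genotype, the median of the genes ran from -0.90 to -0.47, Retnla from -2.79 to -1.93 and Chil3 from -1.39 to -1.16. The number of genes with KO below WT in every pair ran from 5 to 8 in these fits (8 without WT replicate 1) and was 4 with library totals, with a mean CPM of at least 1, which drops Pdcd1lg2, and with limma. Leaving out a library can only keep or raise this number, so its range over those fits says nothing on its stability. The sign turned for Mrc1 when length was corrected (-0.054), also beside the replicate block (-0.043), and without WT replicate 1 (-0.12), for Il4ra without WT replicate 1 (-0.24) and KO replicate 2 (-0.04), and for Il10ra without KO replicate 2 (0.017). Leaving out 1 library gave Mrc1 from -0.12 to 0.31, Il4ra from -0.24 to 0.91 and Il10ra from -0.80 to 0.017. The limma median of -0.21 is on the log2(FPKM + 1) scale, which understates the change of low genes. Adding 1 count moved no ratio within a number across 0. Depth limits Cd163 and Pdcd1lg2 most.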

Other observations

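The genes whose pattern over the 4 libraries was most like that of Chil3, by root mean square distance between centred log2 CPM, were Rps4l (0.03), Hilpda (0.06), a lipid droplet protein gene, and Tpsb2 (0.08), a mast cell tryptase gene with 667 and 561 counts in the WT libraries against 248 and 339 in the KO libraries. Those most like Mrc1 were Nfya, Sbno2 and Traf6 (0.01 each). Those most like Il10ra were 1700088E04Rik (0.06), Tmem221 (0.08) and Gm6473 (0.09), all at low counts, such as 24 and 34 in WT and 30 and 19 in KO for Tmem221. These distances rest on 4 libraries and are a description only.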
